A study of Mus musculus with 4 samples.

Results

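Meg3, Rian, Peg3, Snrpn, Ndn, Nnat, Impact, Ube3a, Grb10 and Plagl1 are imprinted genes of the mouse, and their transcripts were followed in 4 samples of wild-type hippocampus. The genes were chosen by name, with earlier results of these arrays known, and every probe set that the array's probe table pairs with only 1 of these symbols was taken. That gave 45 probe sets of 34958 with a single symbol, for 10 of 18194 genes. The 4 samples, numbered 11, 13, 15 and 17 in the labels, form 1 group: wild-type mice, the complete left hippocampus, 1 array each, described as biological replicates. The sources used here give no strain, age or treatment. With a single group, the questions were whether these genes gave a signal in this tissue, whether the probe sets of a gene moved alike over the samples, and which samples stood apart.

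Imprinted genes are transcribed mainly from the copy inherited from a single parent, because DNA methylation laid down in egg or sperm at control regions keeps the other copy silent. Meg3 and Rian are long noncoding RNAs of the Dlk1-Dio3 region and come from the maternal copy. Peg3, Snrpn, Ndn, Nnat, Impact and Plagl1 come mainly from the paternal copy, Ube3a from the maternal copy in neurons, and Grb10 from the maternal copy in most tissues and the paternal copy in neurons. Several of them are known for strong transcription in brain. An expression array adds up the transcripts of both copies, so nothing below shows which copy was read.

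The promoter table made from RefSeq (build GRCm38.p6) had 14 start sites for 9 of the 10 genes; Impact had no entry. The bases upstream of a start site are shown for Meg3, whose probe sets moved together over the samples, for Peg3, which carries the same motif, and for Ndn, whose level was even, and Nnat, which share a second motif; bases inside any annotated transcript of the gene were left off. Capitals mark TGACGTCA, the full cAMP response element, or CGCATGCG, the inner part of the recognition motif of NRF1. Both words read the same on either strand, do not overlap here, and were picked after the sequences had been seen.
Meg3, chr12:109540746-109540995, strand +: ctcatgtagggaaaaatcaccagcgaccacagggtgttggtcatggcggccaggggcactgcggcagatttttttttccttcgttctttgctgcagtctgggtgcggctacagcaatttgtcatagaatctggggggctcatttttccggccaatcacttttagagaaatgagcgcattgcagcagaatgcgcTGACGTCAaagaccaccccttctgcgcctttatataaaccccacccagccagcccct
Peg3, chr7:6730463-6730669, strand -: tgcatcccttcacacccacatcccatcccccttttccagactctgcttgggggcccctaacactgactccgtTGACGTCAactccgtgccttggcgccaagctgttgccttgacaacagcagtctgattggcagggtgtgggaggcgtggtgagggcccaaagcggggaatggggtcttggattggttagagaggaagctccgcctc
Ndn, chr7:62348027-62348276, strand +: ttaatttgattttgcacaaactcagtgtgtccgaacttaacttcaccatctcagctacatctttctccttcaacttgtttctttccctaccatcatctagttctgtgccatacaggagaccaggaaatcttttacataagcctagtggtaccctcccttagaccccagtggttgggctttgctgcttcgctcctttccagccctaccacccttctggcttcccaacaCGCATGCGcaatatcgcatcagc
Nnat, chr2:157559828-157560077, strand +: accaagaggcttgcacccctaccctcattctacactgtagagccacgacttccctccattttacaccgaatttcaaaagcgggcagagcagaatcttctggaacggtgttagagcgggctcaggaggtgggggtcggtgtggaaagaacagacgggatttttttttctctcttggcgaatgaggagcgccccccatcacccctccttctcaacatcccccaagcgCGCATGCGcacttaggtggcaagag

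Within the 250 bases upstream, TGACGTCA stood in 2 of the 14 promoters, those of Meg3 and Peg3, against 1.55% of 32851 promoters in the table. CGCATGCG stood in 5 of the 14, at Ndn, Nnat and 3 start sites of Snrpn and so at 3 genes, also against 1.55% of all. Both words were picked after these sequences had been seen, so the shares are a description and no test of enrichment. The dinucleotide CG occurred 0 to 40 times in the members' windows with a median of 6.5, against a median of 6 in the whole table. The highest count belonged to a start site of Grb10, and Rian and a second start site of Meg3, not the one shown, had 0. These matches describe letters and show no binding.

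Values are log2 intensities as the authors deposited them, and a difference of 1 is a doubling of signal. Signal depends on how well a probe set binds its target, so levels of different probe sets are not ranked, and only their changes over the samples are set side by side. A background limit of 6.06 was set, the 95th percentile over 45 genes that mark other organs such as testis and liver. Of hippocampal pyramidal and granule cell markers 14 of 15 lay above it (Prox1 did not), as did 8 of 8 neuron, 8 of 8 interneuron, 8 of 8 astrocyte and 7 of 7 myelin markers, 5 of 7 microglial and 5 of 8 endothelial and mural markers. Choroid plexus and ependyma markers were at 1 of 8, meningeal markers at 4 of 8, hypothalamic markers at 1 of 10, and markers of thalamus, striatum and neocortex at 7 of 12. Control probe sets at the 2 ends of Gapdh were 0.62, 0.62, 2.64 and 3.79 apart in samples 11, 13, 15 and 17 (3' minus 5', log2), so 5' signal was weaker in samples 15 and 17. Precision is limited by having 4 arrays. Of the 45 member probe sets 18 repeat a value between samples, which lowers their SD, as do 24009 of all 45101 probe sets.

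All 10 genes had at least 1 probe set above background, and 28 of their 45 probe sets were above it, against 38% of all 34958 single-symbol probe sets. The genes had been chosen with their levels known, so these counts are a description. All 11 probe sets of Meg3 and all 4 of Rian were above the limit, as were the only single-symbol probe sets of Snrpn and Nnat. Peg3 had 2 of 5 above it and Ndn 5 of 8. Impact (1 of 3), Ube3a (1 of 6), Grb10 (1 of 3) and Plagl1 (1 of 3) were each read above background by a single probe set. Closest to the limit lay Snrpn 1432096_at at 6.44 ± 0.180 and Rian 1428055_at at 6.49 ± 0.301 above it, and Impact 1446750_at at 5.81 ± 0.0700 below it (mean ± SD, n = 4, as for every level that follows).

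**Figure D1:**
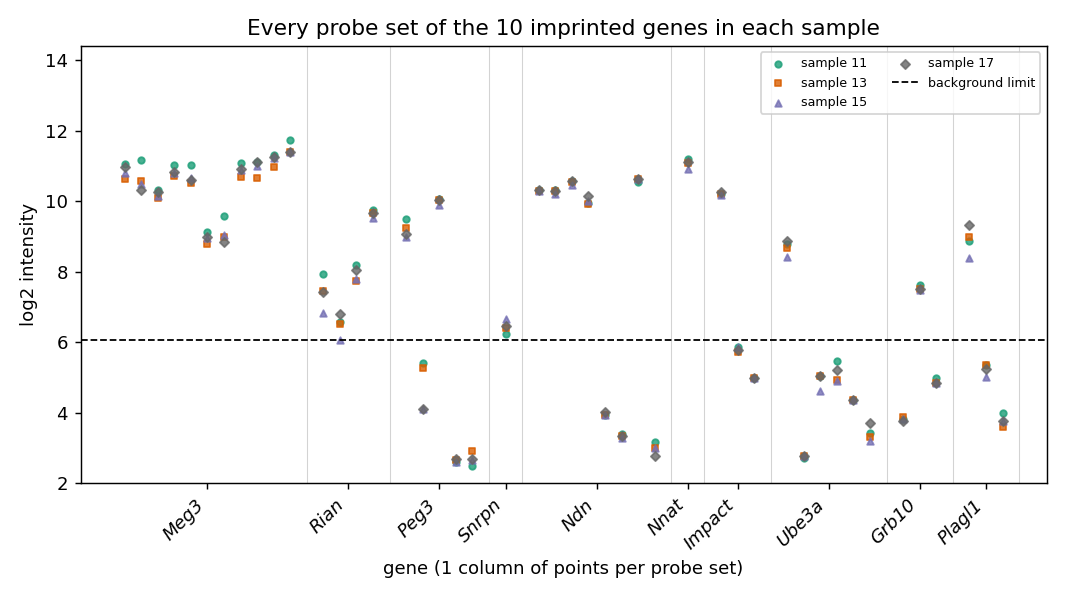
Log2 intensity (vertical axis) of each of the 45 probe sets of the 10 imprinted genes (columns of points, grouped by gene), with 1 marker for each of samples 11, 13, 15 and 17 and a dashed line at the background limit of 6.06. The 11 Meg3 probe sets lie well above the line in every sample, while Ndn, Impact, Ube3a, Grb10 and Plagl1 each have probe sets on both sides of it.

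Meg3 was higher in sample 11 than in the other samples, and its probe sets shared this pattern. Of the 11 probe sets 10 were highest in sample 11, where 14.2% of the 14764 probe sets above background on the array were highest, and 9 were lowest in sample 13, where 18.8% of all were lowest. All 11 read less in sample 13 than in sample 11, with a ratio of sample 11 to sample 13 between 1.18-fold and 1.51-fold and a median of 1.30-fold. The share of all probe sets that read less in sample 13 than in sample 11 was not counted. Averaged over the probe sets, Meg3 had log2 deviations from its own mean of 0.24, -0.17, -0.041 and -0.038 in samples 11, 13, 15 and 17, a span of 0.41 or 1.33-fold.

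The 3 probe sets designed from the same source sequence did not move alike. Probe set 1428764_at stood at 11.17, 10.57, 10.50 and 10.31 in samples 11, 13, 15 and 17, an SD of 0.373 and a span of 1.82-fold, the widest of the 11. Probe set 1428765_at stood at 10.32, 10.09, 10.16 and 10.26 in the same samples, an SD of 0.104 and the narrowest span, 1.18-fold. Probe set 1452905_at had 11.32, 10.96, 11.21 and 11.25. All 3 were highest in sample 11, but the first was lowest in sample 17 and the other two in sample 13.

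A further pair from a shared source sequence moved more alike. Probe set 1426758_s_at read 11.06, 10.64, 10.81 and 10.97 in samples 11, 13, 15 and 17. Probe set 1452183_a_at read 11.10, 10.67, 11.00 and 11.10, and it alone was highest in sample 17, where 34.7% of all probe sets above background were highest, at 11.105 against 11.098 in sample 11. Both were lowest in sample 13. Probe sets 1429256_at, at 11.02, 10.70, 10.80 and 10.83, and 1429257_at, at 11.04, 10.53, 10.65 and 10.60, come from another shared source sequence and were also lowest in sample 13.

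The remaining 4 probe sets shared no listed source sequence. Probe set 1436713_s_at stood at 9.58, 8.99, 9.05 and 8.84 in samples 11, 13, 15 and 17 and, like 1428764_at, was lowest in sample 17. Probe set 1436057_at stood at 9.14, 8.80, 8.95 and 8.97, and 1439380_x_at at 11.07, 10.70, 10.88 and 10.91. Probe set 1452906_at stood at 11.72 in sample 11 and between 11.396 and 11.402 in the other samples. Sample 11 was highest in all 4, while the place of sample 17 differed: over the 11 probe sets, 7 read more in sample 17 than in sample 15 and 4 read less.

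**Figure D2:**
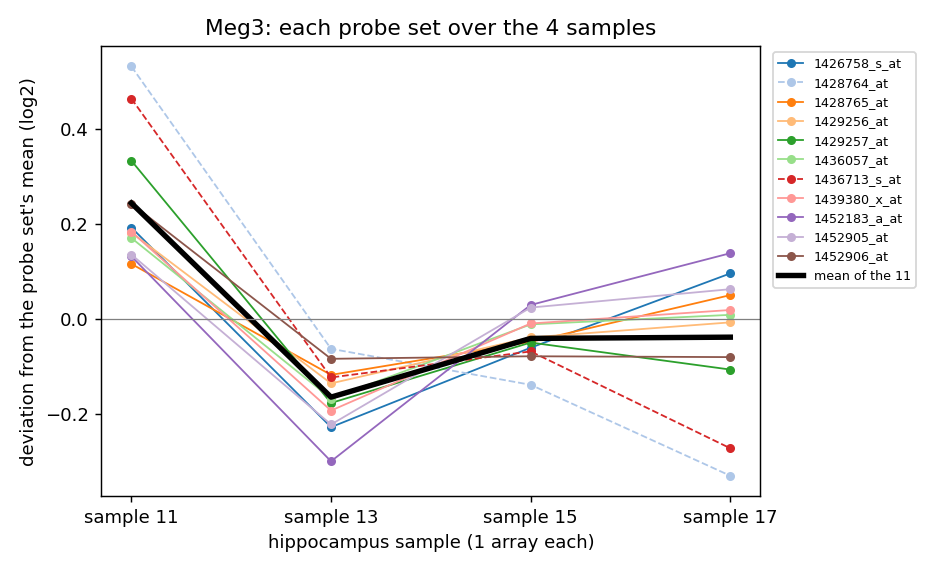
Deviation of each Meg3 probe set from its own mean over the 4 samples (vertical axis, log2) by sample (horizontal axis, samples have no order); thin lines join the values of a probe set, dashed for the 2 that were lowest in sample 17, and the thick line is the mean of the 11. Every probe set lies above 0 in sample 11, between 0.12 and 0.53, and below 0 in sample 13, between -0.30 and -0.063.

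The test covered every gene that at least 2 probe sets read above background, and the shared pattern of Meg3 had the smallest p of 3002 genes. The mean square between samples was 21.2 times the squeezed mean square of probe set by sample (F test with limma's squeezeVar, unadjusted p = 9.03e-08, Benjamini-Hochberg adjusted p = 1.17e-04), and 19 genes, 0.633% of those tested, were called at 0.05. The p reflects the 11 probe sets as well as the size of the pattern, since Meg3 ranked 36 by F. Probe sets of a gene share the RNA and labelling of an array and may overlap in sequence, so the test speaks of these 4 arrays and not of replicate animals under different conditions. Without sample 11 the F was 5.36 and the adjusted p 0.286, the mean span was 0.13, and Meg3 was no longer called.

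Samples 11 and 13, between which Meg3 differed most, both showed a Gapdh end difference of 0.62, and the adjusted p for Meg3 was 6.99e-10 once this difference had been regressed out of every probe set. That fit called 123 genes in place of 19, so smaller p-values were not particular to Meg3, and the part of RNA quality in the Meg3 pattern was not tested. Myelin markers moved the other way: all 7 were highest in sample 13, with list means of 9.05, 9.70, 9.24 and 9.13 in samples 11, 13, 15 and 17. The 4 meningeal markers above background, Igf2, Dcn, Ptgds and Col1a2, were all highest in sample 11. The list mean of the 4 was 9.01, 8.69, 8.53 and 8.58 in samples 11, 13, 15 and 17. Igf2 and Dcn also stand among the listed imprinted genes, and their imprinting in this tissue was not measured. The meningeal markers Col1a1, Lum, Slc6a13 and Foxc1 were under background. Ttr of the choroid plexus was highest in sample 13, at 9.84 against 7.36, 6.86 and 6.54 in samples 11, 15 and 17, and the other 7 measured markers of that list were under background. Neuron markers had list means between 11.01 and 11.06. Microglial markers had list means of 8.12, 8.34, 8.44 and 8.32 in samples 11, 13, 15 and 17. In the same order, astrocyte markers had 9.79, 9.89, 9.90 and 9.94 and interneuron markers 8.73, 8.86, 8.84 and 8.78. These lists were lowest in sample 11, as were 42.3% of all probe sets above background. Sample 11 was highest for 1 of 5 microglial, 1 of 8 astrocyte and 0 of 8 interneuron markers. The endothelial and mural list was lowest in sample 17. The part of these markers in the Meg3 pattern was not tested. In tissue RNA, fewer cells of a type and less RNA per cell cannot be told apart.

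Rian, the neighbour of Meg3 that hosts small nucleolar RNAs, was lowest in sample 15 for 3 of its 4 probe sets. Probe set 1427580_a_at stood at 7.94, 7.46, 6.83 and 7.42 in samples 11, 13, 15 and 17, the widest span of any member above background at 2.16-fold. Probe set 1428055_at stood at 6.57, 6.52, 6.07 and 6.79, and 1452899_at at 9.75, 9.67, 9.53 and 9.67. Probe set 1440001_at went with Meg3 instead, highest in sample 11 at 8.18 and lowest in sample 13 at 7.73, with 7.80 in sample 15 and 8.04 in sample 17. The mean of the 4 deviated by 0.24, -0.027, -0.32 and 0.11 in samples 11, 13, 15 and 17, and the shared pattern was not called (F = 6.40, adjusted p = 0.144 by the same test). With the Gapdh difference regressed out it was called, at an adjusted p of 0.0402, in a fit that called 123 genes in place of 19. Of the neighbours in this region, the noncoding Mirg was above background at 7.51 ± 0.130 and lowest in sample 13, at 7.32 against 7.56, 7.56 and 7.60 in samples 11, 15 and 17. Dlk1, a paternally expressed membrane protein of the Notch ligand kind, was under background at 5.89 ± 0.189.

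Peg3, a zinc finger protein, was read above background by 2 of 5 probe sets, both highest in sample 11 and lowest in sample 15. Probe set 1417355_at stood at 9.50, 9.24, 8.99 and 9.08 in samples 11, 13, 15 and 17, and 1433924_at at 10.06, 10.03, 9.88 and 10.04. Their shared pattern was not called (F = 3.74, adjusted p = 0.352). Probe set 1417356_at, from the same source sequence as 1417355_at, was under background on average at 4.72 ± 0.712, with the widest span of all 45 probe sets: it stood at 5.41 and 5.26 in samples 11 and 13, and at 4.11 and 4.10 in samples 15 and 17. Samples 15 and 17 are those with the larger Gapdh end difference, and the part of RNA quality in this gap was not tested. The other 2 probe sets lay at 2.64 ± 0.0402 and 2.69 ± 0.174. Of the neighbours of Peg3, 0 of 3 measured were above background: Usp29 had 5.64 ± 0.136, Zim1 3.04 ± 0.135 and Zim3 4.30 ± 0.116.

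Snrpn, which encodes the spliceosomal protein SmN, had only 1 probe set of its own, 1432096_at, at 6.22, 6.40, 6.66 and 6.47 in samples 11, 13, 15 and 17, lowest in sample 11 and highest in sample 15. A further 6 probe sets are assigned to both Snurf and Snrpn, which share a transcript; they are not members and cannot be credited to either gene. The level of 1432096_at near the background limit therefore does not show that Snrpn was low. Of the 6 shared probe sets, 1415895_at, 1415896_x_at and 1435716_x_at stood at 12.33 ± 0.0291, 12.34 ± 0.0390 and 11.76 ± 0.0295. In contrast, 1421063_s_at stood at 10.03, 9.84, 8.40 and 7.70 in samples 11, 13, 15 and 17, an SD of 1.13. It was low in samples 15 and 17, as the 5' signal of Gapdh was, and the part of RNA quality was not tested.

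**Figure D3:**
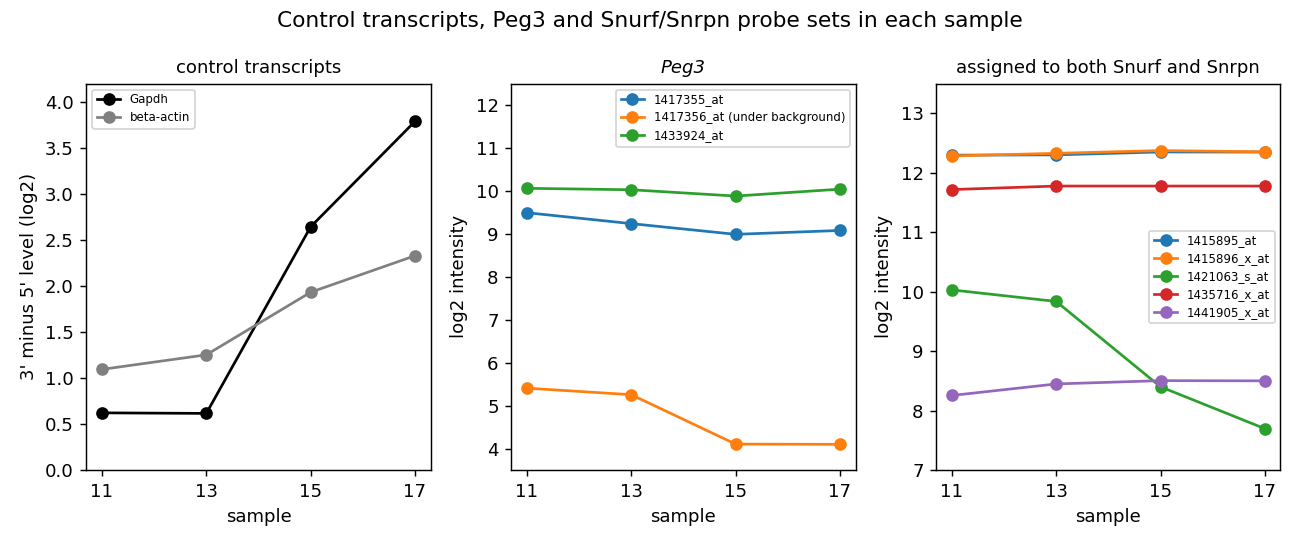
Left, 3' minus 5' difference in log2 level of the control transcripts Gapdh and beta-actin in samples 11, 13, 15 and 17; middle, log2 intensity of 3 Peg3 probe sets; right, log2 intensity of the 5 probe sets above background that are assigned to both Snurf and Snrpn. Points are single arrays and lines only join them. Peg3 1417356_at and 1421063_s_at are low in samples 15 and 17, where the Gapdh difference is 2.64 and 3.79, while the other probe sets shown change less.

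Ndn, or necdin, a MAGE family protein of neurons, kept an even level. Its 5 probe sets above background had SDs from 0.0126 to 0.108, against a median SD of 0.0916 over all probe sets above background. Of these, 1415923_at, 1435382_at and 1455792_x_at repeat a value between samples, which lowers their SD. Probe set 1415923_at stood at 10.31, 10.29, 10.29 and 10.31 in samples 11, 13, 15 and 17, a span of 1.02-fold. The mean of the 5 deviated by no more than 0.052 in any sample, and the shared pattern was not called (F = 1.76, adjusted p = 0.492). The other 3 probe sets assigned to Ndn lay under background, between 2.99 and 3.96.

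Ube3a, the ubiquitin ligase whose maternal loss in humans underlies Angelman syndrome, was read above background only by 1416680_at, at 8.78, 8.67, 8.42 and 8.88 in samples 11, 13, 15 and 17. It was lowest in sample 15 and highest in sample 17. The other 5 probe sets lay between 2.75 and 5.14. Among the measured neighbours of Snrpn, Ndn and Ube3a, 2 of 7 were above background. The noncoding Snhg14, whose transcript runs antisense to Ube3a, had 7.34, 7.08, 7.09 and 7.29 in samples 11, 13, 15 and 17. The GABA receptor subunit Gabra5 had 8.58, 8.67, 8.83 and 8.74. Magel2 (4.30 ± 0.0577), Mkrn3 (2.87 ± 0.0497), Peg12 (2.35 ± 0.126), Atp10a (4.23 ± 0.0647) and Gabrg3 (4.94 ± 0.120) were under it, which does not show that they were absent.

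Plagl1, a zinc finger transcription factor also called Zac1, varied most among the members with a single probe set above background. Probe set 1426208_x_at stood at 8.87, 8.98, 8.38 and 9.31 in samples 11, 13, 15 and 17, with an SD of 0.386, and sample 17 was 1.91-fold above sample 15. Its other probe sets lay at 5.24 ± 0.155 and 3.79 ± 0.163 and did not show this order: the first was lowest in sample 15 as well but not highest in sample 17, and the second was lowest in sample 13. Nnat, or neuronatin, a small membrane protein, stood at 11.18, 11.10, 10.90 and 11.10, lowest in sample 15.

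Impact, an inhibitor of the translational kinase GCN2, and Grb10, an adaptor that restrains insulin and IGF receptor signalling, stayed close over the samples. Impact 1415911_at had 10.27 in sample 17 and 10.19 in the other 3. Grb10 1425458_a_at had 7.61 in sample 11 and 7.50, 7.48 and 7.50 in samples 13, 15 and 17. Their SDs of 0.0415 and 0.0600 were under the median of 0.0916, and both probe sets repeat a value between samples, which lowers their SD. The second Impact probe set lay under background at 5.81, and a further one held a single value in all 4 samples. Of the measured neighbours of these genes 1 of 5 was above background: Blcap, within which Nnat lies, had 9.56, 9.69, 9.74 and 9.84 in samples 11, 13, 15 and 17, lowest in sample 11, where Nnat was highest. Ddc (5.32 ± 0.111) and Cobl (5.90 ± 0.129) beside Grb10, Phactr2 (4.34 ± 0.192) beside Plagl1 and Hrh4 (3.30 ± 0.0623) beside Impact were under it.

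**Figure D4:**
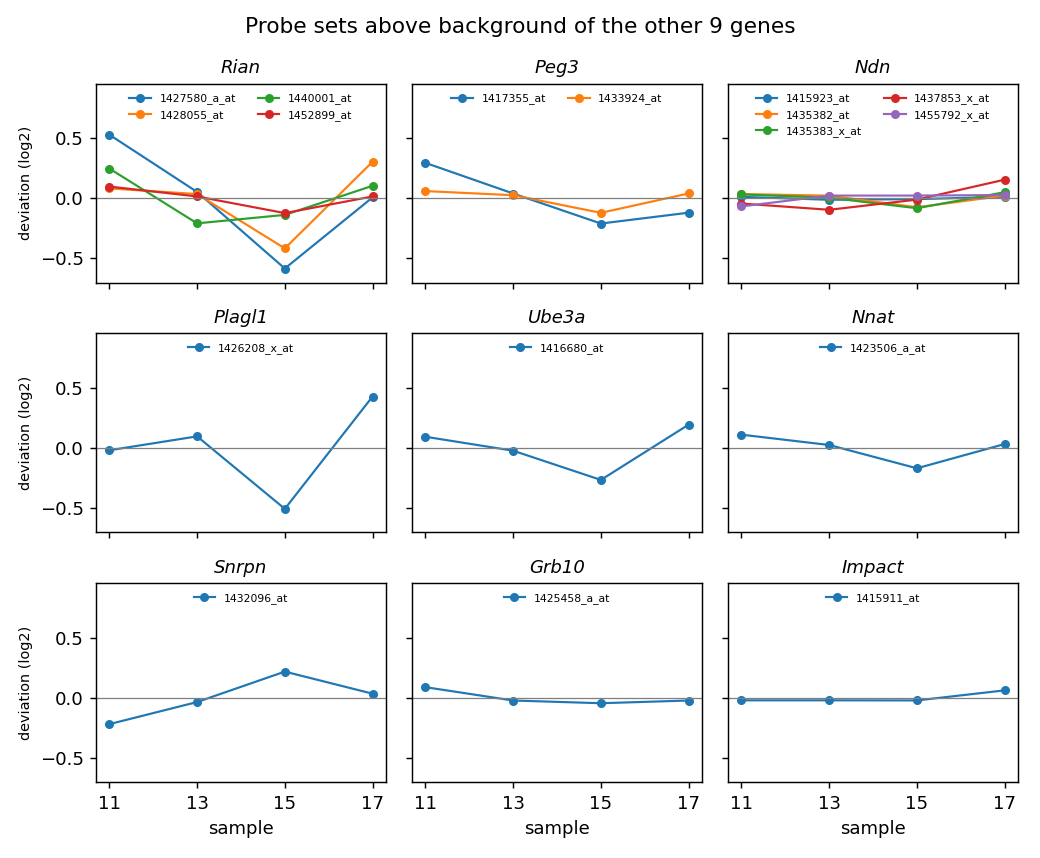
Deviation from the probe set's own mean (vertical axis, log2) in samples 11, 13, 15 and 17 (horizontal axis, no order) for the 17 probe sets above background of Rian, Peg3, Ndn, Plagl1, Ube3a, Nnat, Snrpn, Grb10 and Impact. Lines only join the values of a probe set. Plagl1, Ube3a, Nnat, Peg3 and 3 of the 4 Rian probe sets are lowest in sample 15, Snrpn is highest there, and Ndn, Grb10 and Impact stay near 0.

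Sample 15 was the low sample for most members other than Meg3. Of their 17 probe sets above background 12 were lowest in sample 15, which held for 13.6% of all probe sets above background; the 12 belong to Rian, Peg3, Ndn, Nnat, Impact, Ube3a, Grb10 and Plagl1. For Impact and Grb10 sample 15 lay only just under the next sample, and Snrpn was highest in sample 15. Sample 11, the lowest for 42.3% of all probe sets above background, was lowest for 2 members, Snrpn 1432096_at and Ndn 1455792_x_at. By the probe set with the highest mean, 7 of the 9 genes were lowest in sample 15, and the share over all genes was not counted. Of the 30 other listed imprinted genes above background, 6 were lowest in sample 15. The counts over the members were made after the values had been seen and have no test.

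None of these spreads passed a test of a single probe set. With limma, the variance of each of 14764 probe sets above background was set against the variance fitted at its level, and 0 of the 28 members were called at an adjusted p of 0.05, against 0% of all probe sets. The smallest adjusted p was 0.885 both among the members and over the array. Without adjustment 8 of the 28 members had a p under 0.05, 6 of Meg3, 1 of Rian and 1 of Plagl1, against 408 of 14764 in all. The same test did not call Ttr, with a span of 9.87-fold between samples (adjusted p = 0.885). The 0 calls therefore say little about the narrower spans of the members above background, and do not show that levels were alike.

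Other imprinted genes were detected about as often as genes in general. Of 73 listed imprinted genes besides the members, 62 had a probe set of their own and 30 of these were above background, or 48.4%, against 49% of 18194 genes. Some of the listed genes are known to be imprinted only in placenta or at certain stages. Of those listed as expressed from the paternal allele, 12 of 17 were above background. Among them Igf2, a growth factor, had 8.30 ± 0.197, the noncoding Kcnq1ot1 6.86 ± 0.168 and Sgce, a sarcoglycan, 7.12 ± 0.0314. Peg10 lay under background at 2.74 ± 0.106. Of those listed as expressed from the maternal allele, 12 of 25 were above background, with the receptor Igf2r at 7.45 ± 0.149. The cell cycle inhibitor Cdkn1c lay under it at 4.69 ± 0.139, as did Phlda2 at 3.93 ± 0.195 and Slc22a18 at 5.66 ± 0.0974. Of the 3 genes whose imprinting depends on the transcript, Gnas, which encodes a stimulatory G protein subunit, stood at 12.37 ± 0.0225 and Herc3 at 7.98 ± 0.0293, and Gpr1 at 4.22 under background.

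The order of samples seen for Meg3 was not that of the listed imprinted genes together. Of the 30 above background, 10 read more in sample 11 than in sample 13, 18 read less and 2 were equal. Sample 11 was lowest for 42.3% of all probe sets above background, and the comparison of samples 11 and 13 was not counted over all genes. The 10 and 18 are therefore no result about imprinted genes. Of the 30, 6 were lowest in sample 13, near the share of 1628 of 8923 genes above background. Kcnq1ot1 was among these 6. Of the factors that set or keep imprints 7 of 14 were above background. Trim28, the corepressor that holds methylation at imprints, had 9.97 ± 0.0673. The methyltransferases Dnmt1 and Dnmt3a had 7.73 ± 0.0109 and 7.39 ± 0.00886, and both repeat a value, which lowers their SD. Dnmt1 read 7.72 in samples 11, 13 and 17, and Dnmt3a read 7.38 in samples 13 and 15. Zfp57, the zinc finger protein that directs Trim28 to imprints in the embryo, was under background at 4.54 ± 0.0863.

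The 5 genes outside the members whose deviations lay nearest to the mean of Meg3 were Kcnj6, D930048N14Rik, Snrnp70, Tma16 and A2ml1, with root mean square differences of 0.0287 to 0.0469 on the log2 scale over the 4 samples. They were chosen from 8913 genes above background, so some close matches had to be found. Kcnj6, D930048N14Rik and Tma16 lay near the background limit of 6.06, at 6.35 ± 0.169, 6.26 ± 0.142 and 6.40 ± 0.220, and A2ml1 at 7.01 ± 0.140. Snrnp70, a protein of the U1 spliceosomal particle, stood at 8.88, 8.57, 8.66 and 8.69 in samples 11, 13, 15 and 17. Kcnj6, a potassium channel opened by G proteins, stood at 6.58, 6.19, 6.27 and 6.35.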

How the data were processed

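The values are log2 intensities per probe set, deposited by the authors and the submitters' processing notes name RMA, which as a method background-corrects, quantile-normalizes and condenses probes into 1 value; its version is not given here. The labels' protocols record column-purified, DNase-treated RNA and biotin labelling after amplification. Array medians lay between 4.67 and 4.71. The probe table gave 34958 of 45101 probe sets a single symbol, 932 several and 9211 none; symbols were updated through Entrez identifiers (34754 matched) in the RefSeq table of GRCm38.p6.

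Each gene of a list was represented by its probe set with the highest mean. Background was the 95th percentile of 45 of 48 listed genes of other tissues. Spread was tested with limma 3.58.1 in R 4.3.3 (intercept fit, eBayes with trend and robust fit; residual over prior variance as F with 3 and 2.13 degrees of freedom). The shared pattern of a gene's probe sets was tested as the mean square between samples over that of probe set by sample, squeezed with squeezeVar. Both used Benjamini-Hochberg adjustment at 0.05 over all features and were run on simulated data. For the spread test the simulation gave all unchanged probe sets the same SD, unlike these arrays. It therefore does not show what spread that test could have called here. The labels call the replicates biological and do not describe the animals. The spread p sets the variance of a probe set between these samples against a fitted variance. The shared-pattern p measures how far the probe sets of a gene agree, and probe sets are not replicate animals.

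The members, lists and tests were chosen with earlier results of these data known. Named genes are the members, their listed imprinted neighbours, the first 4 measured genes of the other imprinted and factor lists, and the 5 genes nearest to Meg3; markers named outside this rule were chosen after their values were seen. Alternatives covered the background limit, normalization, variance prior, probe set choice, a covariate and each sample left out. The labels name no batch. Figures used Python 3.11.15 and matplotlib 3.10.9.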

Additional observations from a re-analysis of the deposited data

Results flagged for a closer look

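In 12 of 62 probe sets of the members and their imprinted neighbours, the gap between 1 sample and the nearest of the others exceeded Dixon's 95% critical value as a share of the whole range; chance does this in about 1 of 20 groups, and equal values among the other samples make it more frequent. The share over the whole array was not counted, so the 12 are no result about imprinted genes. Values repeat between samples in 24009 of the 45101 probe sets of the array. Of the 12, 6 were above background. Meg3 1452906_at stood at 11.72 in sample 11, against 11.40 in the others. Grb10 1425458_a_at stood at 7.61 in sample 11, against 7.48 to 7.50. Ndn 1435382_at was low in sample 15 at 10.20, against 10.30 to 10.31, and Ndn 1455792_x_at was low in sample 11 at 10.53, against 10.62. Impact 1415911_at stood at 10.27 in sample 17, against 10.19. Mirg was low in sample 13 at 7.32, against 7.56 to 7.60.

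The other 6 were under background. Ube3a 1416681_at stood at 2.71 in sample 11, 1416682_at at 4.63 and 1431224_at at 4.36 in sample 15, in each case against a single value shared by the other samples, as did Grb10 1430164_a_at at 4.99 in sample 11. Ndn 1438939_x_at stood at 4.03 in sample 17, against 3.94. Atp10a stood at 4.14 in sample 13, against 4.26 to 4.27.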

How the results depend on the processing

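The count of 28 member probe sets above background stayed between 26 and 33 under the other limits, normalization and samples left out, and the 33 includes the probe sets assigned to both Snurf and Snrpn, an alternative added after the values had been seen. The spread test called 0 probe sets under all 8 alternatives. These counts say little, since the main fit did not call the 9.87-fold span of Ttr either. The shared pattern of Meg3 was called in 9 of 10 alternatives, with adjusted p from 6.99e-10 to 0.0349, and not without sample 11 (F = 5.36, adjusted p = 0.286); over the samples left out its F ran from 5.36 to 52.6. The number of genes called was 19 and became 36 without squeezing, 37 with median centring, 41 with the limit at the 99th percentile, 123 with the Gapdh difference regressed out, 9 without samples 15 and 17 (added after seeing the data), and 4 to 10 with 1 sample left out, where fewer samples were tested. The mean Meg3 span of 0.41 ran from 0.13 without sample 11 to 0.41 over the samples left out, and from 0.35 to 0.43 under the other settings. Imprinted genes above background were 20 with the median over probe sets and 28 to 36 under other limits, against 30. The cause of these shifts was not tested. Rian was called only with the Gapdh difference regressed out. No paired analysis was possible because the samples form 1 group.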
